A study of Mus musculus with 12 samples.

Results

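The 36 genes described here encode proteins that place, remove or bind acyl groups on histone lysines. They were chosen by gene symbol and function: 10 lysine acyltransferases (writers), 18 deacylases (erasers; 4 class I, 4 class IIa and 3 class IIb or IV histone deacetylases and 7 sirtuins) and 8 bromodomain or YEATS proteins (readers). All 36 were found among the 16514 gene IDs of the series and were listed and tested in every comparison. Hearts came from male C57Bl/6J mice aged 12 weeks. One diet lacked branched-chain amino acids (BCAA-free) and the other held them at chow-like levels (BCAA-control), and 1% propionate was added to both, so no group went without propionate. Feeding began 4 days before surgery and went on until tissue was taken 1 week after it. Surgery was transverse aortic constriction (TAC), which narrows the aorta and loads the left ventricle with pressure, or a sham operation. The 4 groups of 3 libraries each were BCAA-free TAC, BCAA-free sham, BCAA-control TAC and BCAA-control sham, and poly(A) RNA was sequenced from each heart sample. Nothing in the labels says that the 3 libraries of a group are 3 animals, and the p-values given here cover only library-to-library spread, which may be technical.

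Acyltransferases use acyl-CoA as donor, and several accept propionyl-CoA as well as acetyl-CoA. Propionyl-CoA is made from propionate and from the breakdown of isoleucine and valine. Zinc-dependent histone deacetylases (HDACs) remove acyl groups, sirtuins do so at the cost of NAD, and bromodomain and YEATS proteins bind the modified lysines. In mouse heart muscle the class IIa HDACs are best known as partners and repressors of MEF2 transcription factors. These HDACs leave the nucleus when hypertrophic kinases phosphorylate them.

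Libraries held 29929161 to 46101244 reads on the listed genes. Cardiomyocyte markers summed to 82077 to 95009 CPM (reads scaled to library size) in every library. BCAA-control TAC replicate 3 held 241.6 CPM of 7 liver markers, against at most 1.83 CPM in the other 11 libraries. BCAA-control TAC replicate 2 held 122.2 CPM of 3 RNA polymerase III transcripts (Rn7sk, Rmrp and Rpph1), against at most 26.3 CPM elsewhere. Calls that changed when these libraries were left out are given beside the genes. Without both of them BCAA-control TAC is a single library, assumed to vary like the libraries of the other groups, so a call lost there may reflect the smaller group. Lung and thymus markers were not listed.

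Per unit of length, the members were above the typical gene of the series. Reads per kilobase of exon, scaled to library size (RPKM), had a median of 5.32 over the 36 members and 2.41 over 16480 listed genes with a known length. Sirt2, an NAD-dependent deacylase found mainly in the cytoplasm, was highest, with group means of 17.5 to 20 RPKM. It was followed by the YEATS reader Yeats4 (15 to 16), the acetyltransferase Kat2b, also called PCAF (14.7 to 16.2), and Hdac5 of class IIa (13.6 to 15.9). The lowest were Yeats2 (0.977 to 1.19), the YEATS reader Mllt3, also called AF9 (0.877 to 0.978), and the class I deacetylase Hdac8 (0.765 to 0.842). By class, medians were 5.32 RPKM for writers, 9.80 for class I HDACs, 5.15 for class IIa, 3.91 for class IIb and IV, 5.38 for sirtuins and 4.48 for readers. The highest group mean exceeded the lowest by 1.64-fold for Hdac4 and 1.5-fold for Kat6a, and by at most 1.35-fold for the other 34 members. With the longest transcript as length, Sirt2 stayed first (44.3 RPKM over all groups) and Hdac8 last (1.71 RPKM), while levels of genes with many alternative exons moved.

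**Figure D1:**
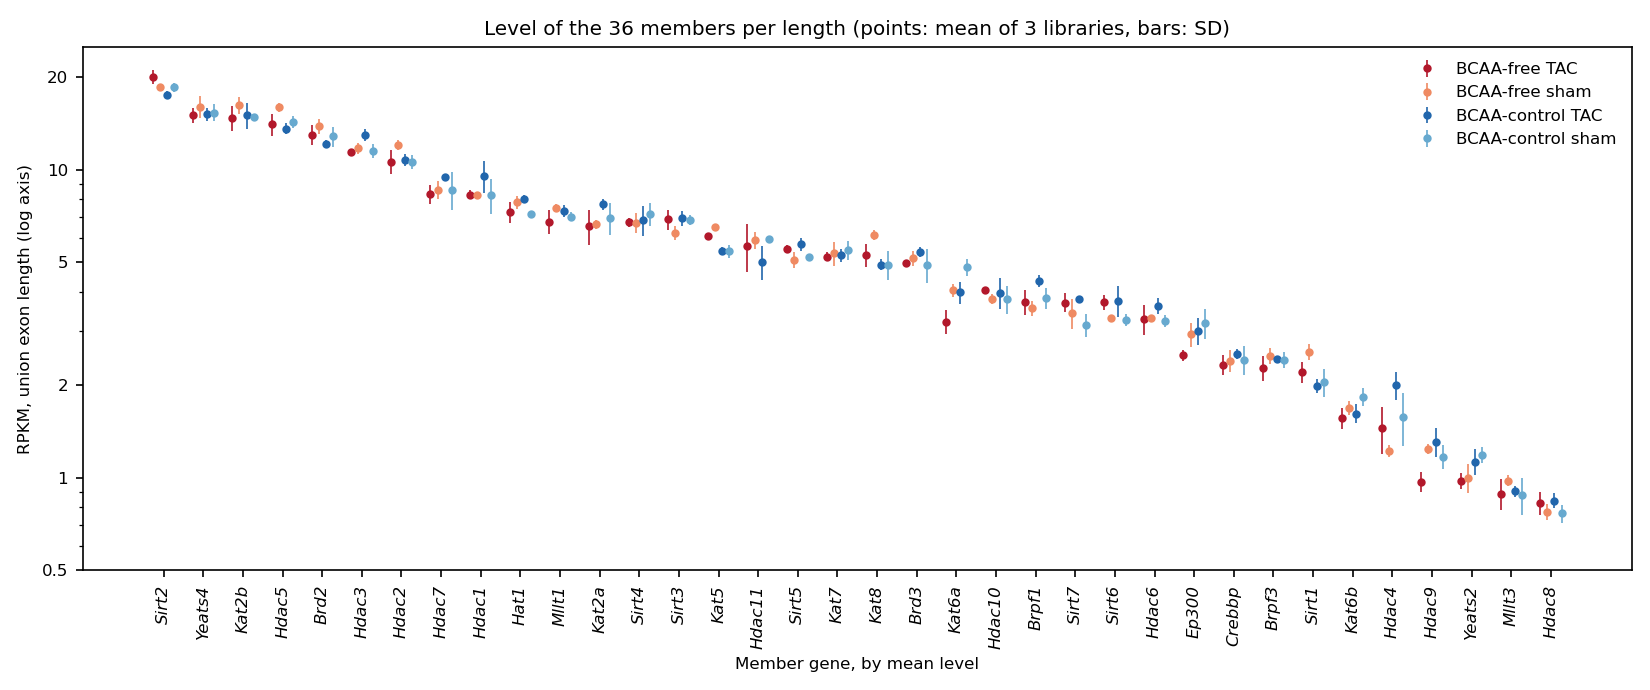
Level of each of the 36 members in RPKM (union exon length, log axis), ordered by mean level. Points are means of 3 libraries in each group and bars are SD. Members span from Hdac8 below 1 RPKM to Sirt2 near 20 RPKM, and Kat6a and Hdac4 show the widest spread between groups.

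The response of the members to surgery and diet was small. In each comparison of 2 groups the 95% interval of every member's change lay within 2-fold, against 81.1 to 87.2% of all genes tested. The widest bound was 1.65-fold, for Hdac4 between the diets in TAC hearts. Genes with more reads tend to have narrower intervals, and the members had a higher median level than all genes (5.32 against 2.41 RPKM). The shares within 2-fold are thus not matched for level. The median change of the members was -0.04 (log2) for TAC on the BCAA-free diet, -0.03 for TAC on the BCAA-control diet, 0.03 for diet in TAC hearts and 0.01 for diet in sham hearts, and the median of all genes was within 0.01 of 0 in each. These changes are log2 differences of normalised reads plus 4, tested with limma, and a member was called at an adjusted p under 0.05 over all genes.

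Calls among the members were few. For TAC over sham on the BCAA-free diet 4.32% of all 15936 genes were called (2.94% higher and 1.37% lower), and 1 of 36 members, Kat6a, was lower. At an unadjusted p under 0.05 there were 7 members, all lower, and 21.4% of all genes. For TAC on the BCAA-control diet 5.34% of genes were called (3.40% higher and 1.94% lower) and limma called 0 members, with 5 at an unadjusted p under 0.05 (22.7% of all genes). edgeR called 0 in the fit of these 6 libraries and 1, Kat6a, in a fit of all 12, and DESeq2 called 1, Kat6a. For diet in TAC hearts 3.38% of genes were called (1.27% higher and 2.11% lower) and limma called 0 members, with 5 at an unadjusted p under 0.05 (19.9% of all genes). edgeR called 0 in the fit of these 6 libraries and 2, Hdac9 and Sirt2, in a fit of all 12, and DESeq2 called 1, Hdac9. For diet in sham hearts 2.81% of genes were called (1.05% higher and 1.76% lower) and limma called 0 members, with 8 at an unadjusted p under 0.05 (18.3% of all genes) and 0 by edgeR or DESeq2. The share of members called was near or under that of all genes in each of these.

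Averaging over the other factor used all 12 libraries and narrowed the errors. For TAC averaged over both diets 17.0% of genes were called (9.67% higher and 7.29% lower), and 2 of 36 members fell, Kat6a and Hdac5. At an unadjusted p under 0.05 there were 11 members and 31.3% of all genes. For diet averaged over both surgeries 11.8% of genes were called, and 5 of 36 members changed. Kat5, Kat8 and Sirt1 rose (5.19% of all genes rose) and Kat6a and Hdac4 fell (6.57% fell). At an unadjusted p under 0.05 there were 12 members and 28.2% of all genes. The response to TAC differed between the diets for 0.0451% of genes (0.00644% higher and 0.0386% lower) and for 0 members by limma, edgeR or DESeq2. At an unadjusted p under 0.05 there were 2 members, Hdac9 and Sirt2, and 10.1% of all genes. The averaged comparisons draw on the same libraries as the 4 pairwise ones, and the pairwise ones share groups among themselves.

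**Figure D2:**
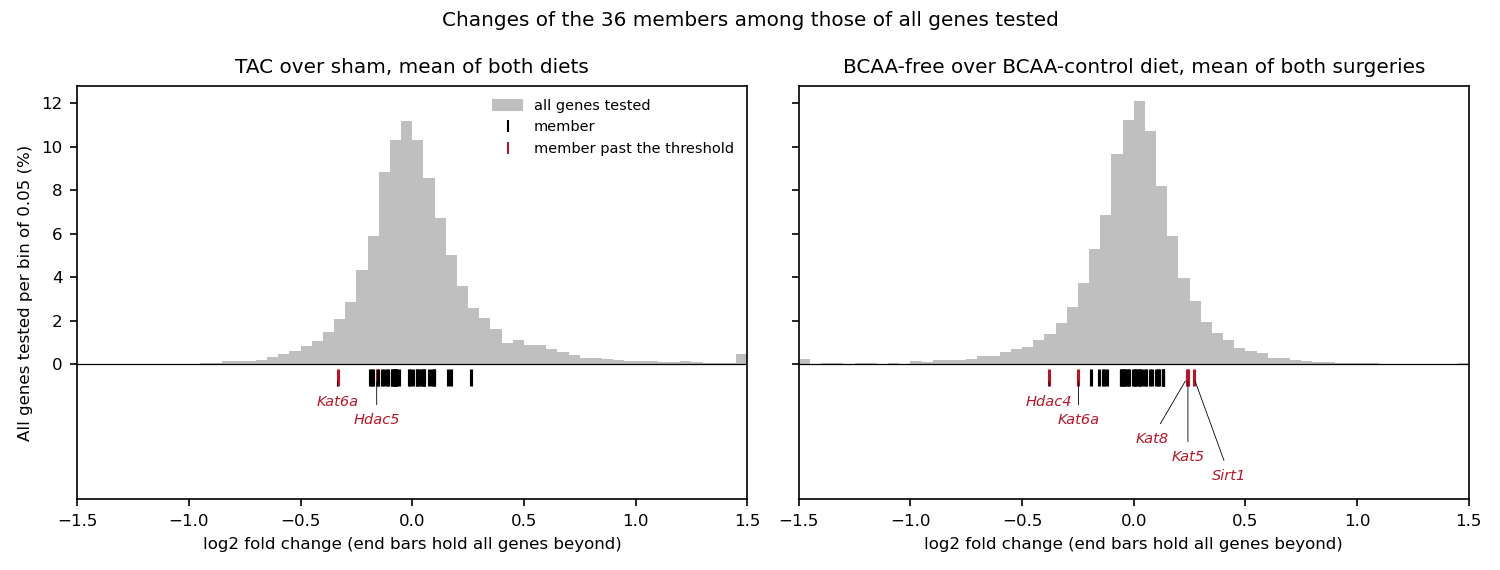
Distribution of log2 fold changes of all genes tested (grey bars, percent of genes per bin of 0.05, with genes beyond 1.5 pooled in the end bars) and of the 36 members (ticks), for TAC averaged over diets and for diet averaged over surgery. Members past the threshold are red and named. The members lie near the centre of both distributions, from -0.33 to 0.26 for TAC and from -0.38 to 0.27 for diet.

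Kat6a (chromosome 8, 22859535 to 22943259, plus strand, GRCm38) encodes a MYST-family acyltransferase that works in a complex with the reader BRPF1. On the BCAA-free diet it had 1210, 1045 and 1157 normalised reads in TAC hearts, against 1505, 1402 and 1388 in sham hearts. On the BCAA-control diet it had 1200, 1411 and 1189 in TAC hearts, against 1637, 1642 and 1508 in sham hearts. Each TAC library thus lay below each sham library of its diet. The change was -0.33 ± 0.08 (log2, SE) on the BCAA-free diet (adjusted p = 0.0423) and -0.34 ± 0.08 on the BCAA-control diet (adjusted p = 0.0515). The BCAA-control change passed without BCAA-control TAC replicate 2 (-0.42, adjusted p = 0.0395). Averaged over diets Kat6a fell by 20.7% (95% interval -27.2 to -13.6%, adjusted p = 0.00233), and the call held with each of the 12 libraries left out in turn (adjusted p = 0.00139 to 0.00857). The call on the BCAA-free diet alone did not hold without BCAA-free sham replicate 1, 2 or 3 or BCAA-free TAC replicate 2 (adjusted p = 0.109 to 0.171). In the authors' deposited tables its adjusted p was 0.0174 on the BCAA-free diet and 0.0154 on the BCAA-control diet. The difference between the diets in this response was 0.00 ± 0.12, with a 95% interval of -0.24 to 0.25.

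Kat6a was also lower on the BCAA-free diet. TAC hearts had 1262, 1102 and 1216 normalised reads on the BCAA-free diet, against 1334, 1584 and 1332 on the BCAA-control diet. Sham hearts had 1348, 1254 and 1238 on the BCAA-free diet, against 1561, 1571 and 1439 on the BCAA-control diet. Groups did not overlap in either pair, and averaged over surgery Kat6a fell by 15.8% (95% interval -22.7 to -8.22%, adjusted p = 0.0145). Pairwise, the change was -0.24 ± 0.09 in TAC hearts (adjusted p = 0.196) and -0.25 ± 0.07 in sham hearts (adjusted p = 0.0749). Leaving out any 1 library kept the averaged call (adjusted p = 0.00920 to 0.0437), and leaving out BCAA-control TAC replicates 2 and 3 together did not (-0.21, adjusted p = 0.0804). Its level was lowest with both treatments, at 3.21 ± 0.29 RPKM (SD, n = 3) in BCAA-free TAC hearts, 4.06 ± 0.20 in BCAA-free sham hearts, 3.99 ± 0.33 in BCAA-control TAC hearts and 4.82 ± 0.32 in BCAA-control sham hearts. No exon of another annotated gene overlaps Kat6a.

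Kat5 (chromosome 19, 5603014 to 5610237, minus strand) encodes TIP60, the catalytic subunit of the NuA4 complex. It had 832, 898 and 868 normalised reads in BCAA-free TAC hearts, against 697, 745 and 771 in BCAA-control TAC hearts. In sham hearts it had 775, 779 and 804 on the BCAA-free diet, against 635, 675 and 663 on the BCAA-control diet. All BCAA-free libraries lay above all BCAA-control libraries of the same surgery. Averaged over surgery Kat5 rose by 18.3% (0.24 ± 0.05 on the log2 scale, adjusted p = 0.00775), and the call held in each of the 12 leave-outs (adjusted p = 0.00604 to 0.0254) and without BCAA-control TAC replicates 2 and 3 together (0.28, adjusted p = 0.0286). Its exons overlap those of Rnaseh2c on the other strand. Rnaseh2c changed by 0.39 ± 0.10 in TAC hearts (adjusted p = 0.0796) and by -0.08 ± 0.10 in sham hearts (adjusted p = 0.742), whereas Kat5 changed by 0.23 ± 0.08 and 0.25 ± 0.07 in the same comparisons (adjusted p = 0.163 and 0.0875). Whether counting used strand is not given in the sources used here, so reads of overlapping antisense genes cannot be told apart. The same holds for Kat8, Hdac4, Hdac7, Hdac11, Sirt1, Sirt2, Sirt3, Brd2, Brpf1 and Brpf3, which also overlap antisense exons. Unlike Rnaseh2c, the antisense genes of Kat8, Hdac4 and Sirt1 (Prss8, Gm26720 and Gm16145) were not among the genes tested in any comparison.

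Kat8 (chromosome 7, 127912516 to 127925837, plus strand) encodes MOF, which acetylates histone H4 lysine 16. It had 553, 682 and 618 normalised reads in BCAA-free TAC hearts, against 546, 569 and 529 in BCAA-control TAC hearts, and these overlapped. In sham hearts it had 598, 618 and 607 on the BCAA-free diet, against 461, 451 and 560 on the BCAA-control diet, with no overlap. Averaged over surgery Kat8 rose by 18.2% (0.24 ± 0.07, adjusted p = 0.0404). The call was lost in 10 of 12 leave-outs, all but BCAA-control sham replicate 3 and BCAA-free TAC replicate 1 (adjusted p up to 0.101), and without BCAA-control TAC replicates 2 and 3 together (adjusted p = 0.137). Its exons overlap those of Prss8 on the other strand, which was not among the genes tested in any comparison.

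limma called none of the other 7 writers. Ep300, which encodes the acetyltransferase p300, changed by -0.22 ± 0.07 for TAC on the BCAA-free diet and by -0.15 ± 0.10 for TAC on the BCAA-control diet, averaging -0.18 ± 0.07 (adjusted p = 0.0707). The average passed without BCAA-control TAC replicate 2 (-0.23, adjusted p = 0.0246) and without replicates 2 and 3 together (-0.28, adjusted p = 0.0174). Its paralog Crebbp (CBP) had changes between -0.05 and 0.00 in the 4 pairwise comparisons. Kat6b, the paralog of Kat6a, averaged -0.18 ± 0.06 for TAC (adjusted p = 0.0509) and -0.05 ± 0.06 for diet (adjusted p = 0.637). DESeq2 called its TAC average (adjusted p = 0.0330), as did edgeR with DESeq2 size factors (adjusted p = 0.0442). Kat2a (GCN5), Kat2b, Kat7 (HBO1, also of the MYST family) and Hat1, which acetylates newly made histone H4, changed by -0.17 to 0.13 in the pairwise comparisons. For TAC on the BCAA-free diet all 10 writers had a negative change (median -0.10), of which only that of Kat6a was called. This describes 1 class in 1 of 7 comparisons, and the class was not tested as a set. For TAC on the BCAA-control diet the authors' deposited changes went both ways. Kat2a (0.08) and Hat1 (0.10) were positive there, and Kat6a (-0.33) and Kat6b (-0.25) were negative. On the BCAA-free diet groups did not overlap for 4 of the 10 writers, all lower in TAC, against 26.7% of all genes without overlap in either direction.

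**Figure D3:**
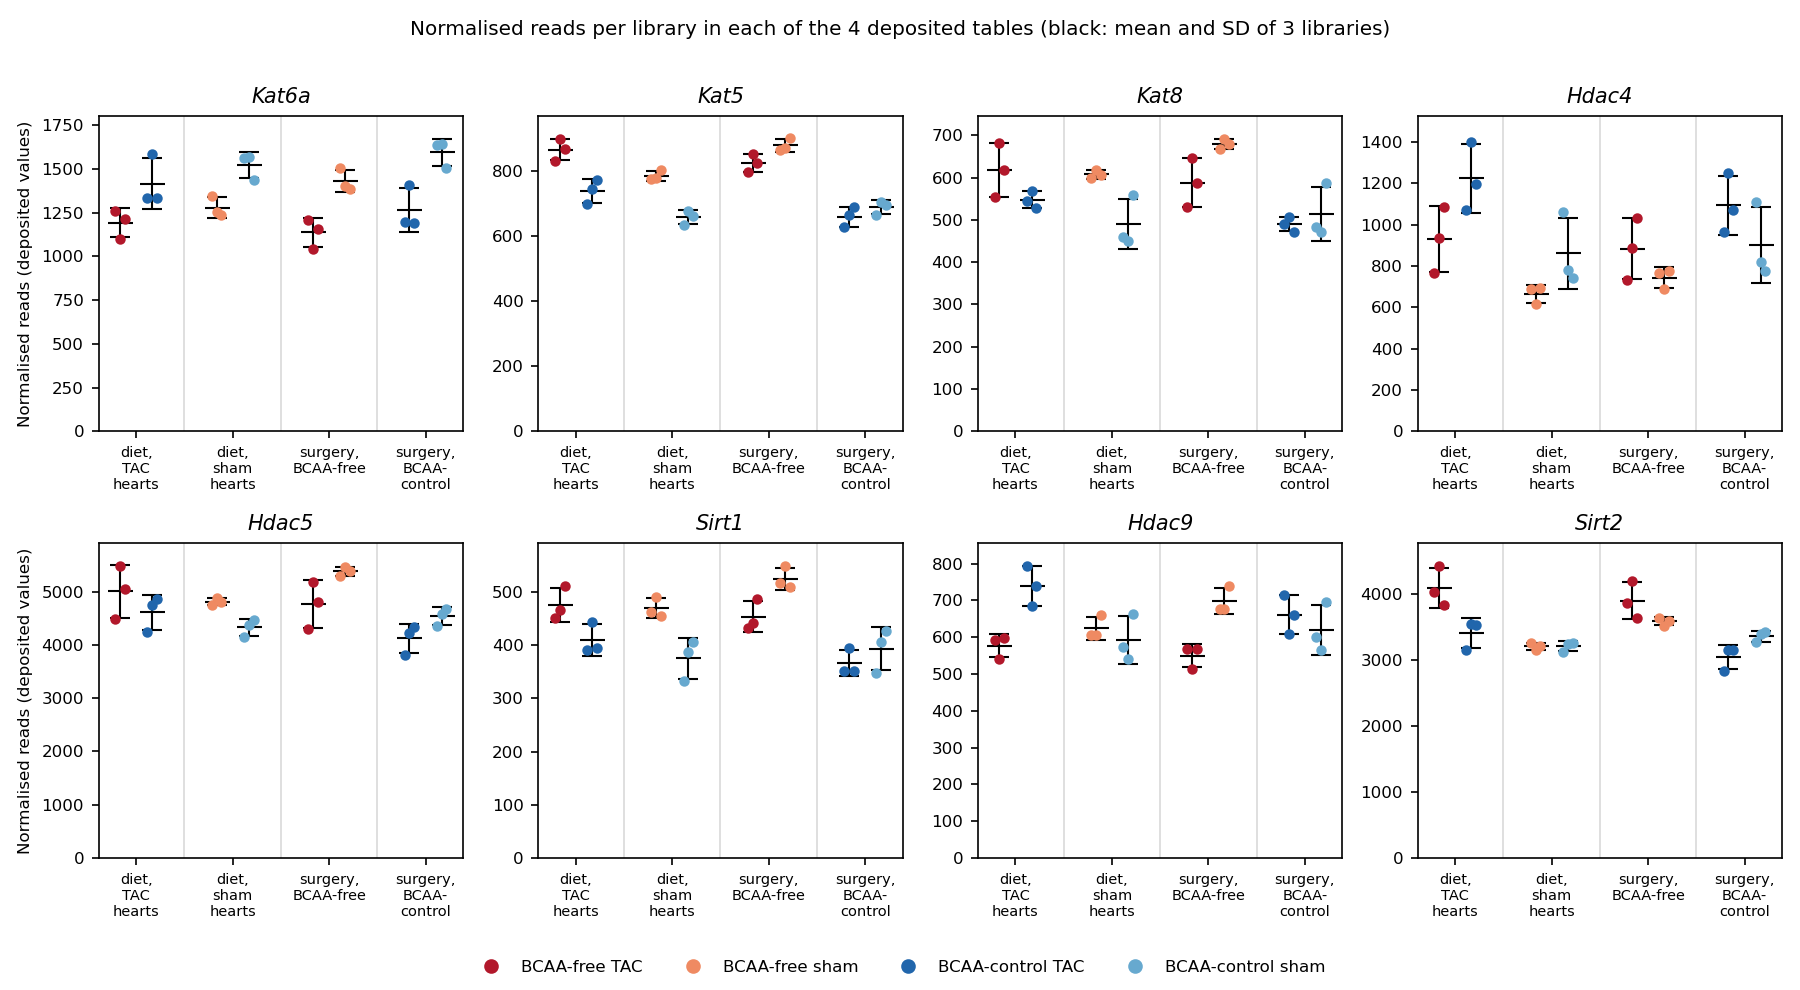
Deposited normalised reads per library of 8 members: the 6 called in an averaged comparison, Hdac9 and Sirt2. Each panel shows the 4 pairwise comparisons, with BCAA-free left of BCAA-control or TAC left of sham, and black marks are mean and SD of 3 libraries. Kat6a libraries were lower with TAC and with the BCAA-free diet in all 4 pairs, and Kat5 libraries were higher on the BCAA-free diet in both diet pairs.

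The class I enzymes Hdac1, Hdac2, Hdac3 and Hdac8 were not called in any comparison. Hdac2, a subunit of the Sin3, NuRD and CoREST complexes, had the smallest p of them. It had 1786, 1835 and 1933 normalised reads in BCAA-free sham hearts, against 1730, 1609 and 1564 in BCAA-control sham hearts. These groups did not overlap, and the change was 0.18 ± 0.06 (adjusted p = 0.165). In TAC hearts its change with diet was 0.05 ± 0.08 (adjusted p = 0.778). Hdac3, the catalytic subunit of the NCoR complex, changed by -0.12 to 0.11 in the pairwise comparisons, and Hdac8 by 0.01 to 0.10.

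Of the class IIa genes, Hdac4 fell with the BCAA-free diet and Hdac5 fell with TAC. Hdac4 (chromosome 1, 91928779 to 92195699, minus strand) had 765, 937 and 1083 normalised reads in BCAA-free TAC hearts, against 1073, 1401 and 1198 in BCAA-control TAC hearts. Sham hearts had 687, 614 and 692 on the BCAA-free diet, against 1059, 782 and 740 on the BCAA-control diet. The sham groups did not overlap, while 1 BCAA-free TAC library lay above the lowest BCAA-control TAC library. Averaged over surgery Hdac4 fell by 23.1% (-0.38 ± 0.10 on the log2 scale, 95% interval of the percentage -34.0 to -10.5%, adjusted p = 0.0292). The call was lost in 7 of 12 leave-outs, namely each BCAA-free sham library, BCAA-free TAC replicate 2, BCAA-control sham replicate 1 and BCAA-control TAC replicates 2 and 3 (adjusted p up to 0.0724), and without both of the last together (-0.29, adjusted p = 0.182). With TAC averaged over diets its change was 0.26 ± 0.10 (adjusted p = 0.0904). In the leave-outs limma called this change only without BCAA-control sham replicate 1 (0.34, adjusted p = 0.0256) or BCAA-free TAC replicate 1 (0.33, adjusted p = 0.0397).

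Hdac5 (chromosome 11, 102194432 to 102230166, minus strand) had 4295, 5187 and 4808 normalised reads in BCAA-free TAC hearts, against 5292, 5458 and 5386 in BCAA-free sham hearts. On the BCAA-control diet it had 3808, 4223 and 4334 in TAC hearts, against 4348, 4578 and 4679 in sham hearts. No TAC library reached the lowest sham library of its diet. Averaged over diets Hdac5 fell by 10.4% (-0.16 ± 0.05, adjusted p = 0.0454), a call that was lost in 10 of 12 leave-outs, all but BCAA-free TAC replicate 2 and BCAA-control TAC replicate 3 (adjusted p up to 0.109), and with edgeR (adjusted p = 0.0521 to 0.0676). With diet averaged over surgery its change was 0.13 ± 0.05 (adjusted p = 0.113).

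Hdac9, the class IIa member that also makes a truncated repressor of MEF2, was not called in any comparison by the main limma fit, which has no replicate block. Its TAC response had the largest difference between the diets among the 36 members. It had 568, 513 and 568 normalised reads in BCAA-free TAC hearts, against 677, 678 and 740 in BCAA-free sham hearts (-0.34 ± 0.09, adjusted p = 0.0555). On the BCAA-control diet it had 714, 609 and 660 in TAC hearts, against 600, 564 and 696 in sham hearts (0.09 ± 0.10, adjusted p = 0.641). Between the diets, TAC hearts had 592, 541 and 597 on the BCAA-free diet, against 794, 684 and 739 on the BCAA-control diet (-0.35 ± 0.09, adjusted p = 0.0761). In sham hearts the diets overlapped (0.08 ± 0.09, adjusted p = 0.711). The difference in TAC response, -0.44 ± 0.13 (95% interval -0.73 to -0.15), had an adjusted p of 0.278 over all genes. In the authors' deposited tables Hdac9 had an adjusted p of 0.0389 for TAC on the BCAA-free diet and 0.0396 for diet in TAC hearts. DESeq2 on the recovered reads called both, with the same adjusted p for diet in TAC hearts (0.0396). It repeats a test of the same reads and is not separate evidence. The main limma fit called the TAC change without BCAA-free TAC replicate 1 or 3 (lowest adjusted p = 0.0484). The diet change in TAC hearts also passed with edgeR on all 12 libraries (adjusted p = 0.0315) and with limma and the replicate block (adjusted p = 0.0399). Hdac7, the fourth class IIa gene, changed by -0.12 to 0.08.

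Among the class IIb and IV enzymes, Hdac6, a tubulin deacetylase, and Hdac10, a polyamine deacetylase, changed by -0.07 to 0.10 in the pairwise comparisons. Hdac11, the class IV enzyme known as a defatty-acylase, had 563, 679 and 763 normalised reads in BCAA-control TAC hearts, against 855, 799 and 824 in BCAA-control sham hearts. These did not overlap, and the change was -0.31 ± 0.11 (adjusted p = 0.13). On the BCAA-free diet it had 711, 1025 and 793 in TAC hearts, against 854, 808 and 958 in sham hearts, which overlapped (-0.06 ± 0.13, adjusted p = 0.818). The difference between these responses was 0.25 ± 0.18 (adjusted p = 0.71).

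Among the sirtuins, Sirt1 (chromosome 10, 63319005 to 63381704, minus strand) encodes the nuclear NAD-dependent deacetylase SIRT1. It had 450, 466 and 512 normalised reads in BCAA-free TAC hearts, against 391, 444 and 394 in BCAA-control TAC hearts. In sham hearts it had 463, 490 and 454 on the BCAA-free diet, against 332, 388 and 406 on the BCAA-control diet. The diets did not overlap under either surgery. Averaged over surgery Sirt1 rose by 0.27 ± 0.07 on the log2 scale (95% interval as a percentage 8.51 to 33.7%, adjusted p = 0.0255). The pairwise changes were 0.22 ± 0.10 in TAC hearts (adjusted p = 0.285) and 0.32 ± 0.10 in sham hearts (adjusted p = 0.114). The averaged call was lost in 6 of 12 leave-outs, BCAA-free sham replicates 1 and 2, BCAA-free TAC replicate 3, BCAA-control sham replicate 1 and BCAA-control TAC replicates 1 and 3 (adjusted p up to 0.0583), and without BCAA-control TAC replicates 2 and 3 together (0.30, adjusted p = 0.0661).

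For Sirt2, TAC libraries lay above sham libraries on the BCAA-free diet and below them on the BCAA-control diet, and neither change passed the threshold. On the BCAA-free diet it had 3853, 4194 and 3637 normalised reads in TAC hearts, against 3635, 3518 and 3592 in sham hearts (0.12 ± 0.07, adjusted p = 0.354). On the BCAA-control diet it had 2831, 3155 and 3143 in TAC hearts, against 3264, 3389 and 3416 in sham hearts (-0.14 ± 0.07, adjusted p = 0.232). Groups did not overlap on either diet, though on the BCAA-free diet the closest libraries were nearly equal (3637 in TAC and 3635 in sham). The difference of the responses was 0.26 ± 0.09 (adjusted p = 0.324). Between the diets, TAC hearts had 4019, 4423 and 3821 on the BCAA-free diet, against 3148, 3541 and 3521 on the BCAA-control diet, without overlap (0.26 ± 0.08, adjusted p = 0.113), and edgeR on all 12 libraries called this change (adjusted p = 0.0310). Sham hearts had 3257, 3146 and 3202 on the BCAA-free diet, against 3113, 3243 and 3258 on the BCAA-control diet, and these overlapped. Its exons overlap those of Nfkbib on the other strand.

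The other 5 sirtuins were not called. Sirt3, the main mitochondrial deacetylase, changed by -0.15 to 0.16 in the pairwise comparisons, and Sirt4 by -0.13 to 0.05. Sirt5, which removes succinyl, malonyl and glutaryl groups, was higher in each TAC library than in each sham library on both diets, by 0.12 on the BCAA-free diet and 0.07 on the BCAA-control diet, averaging 0.10 (adjusted p = 0.128). The nuclear Sirt6 averaged 0.16 and the nucleolar Sirt7 0.17 for TAC (adjusted p = 0.156 and 0.114).

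None of the 8 readers was called by limma in any of the 7 comparisons. Yeats2, a subunit of the ATAC complex whose YEATS domain binds crotonylated lysine, had the smallest p among them. It had 369, 434 and 387 normalised reads in BCAA-free sham hearts, against 447, 466 and 508 in BCAA-control sham hearts, without overlap (-0.25 ± 0.10, adjusted p = 0.196). In TAC hearts its change was -0.13 ± 0.10 (adjusted p = 0.504), and averaged over surgery it was -0.19 ± 0.07 (adjusted p = 0.0777). Brpf1, the scaffold of the KAT6A complex, changed by 0.08 and 0.12 for TAC on the BCAA-free and BCAA-control diets and by -0.15 and -0.11 with diet in TAC and sham hearts. The BET proteins Brd2 and Brd3 changed by -0.14 to 0.16, and Brpf3, Yeats4, Mllt1 (ENL) and Mllt3 by -0.15 to 0.16.

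**Figure D4:**
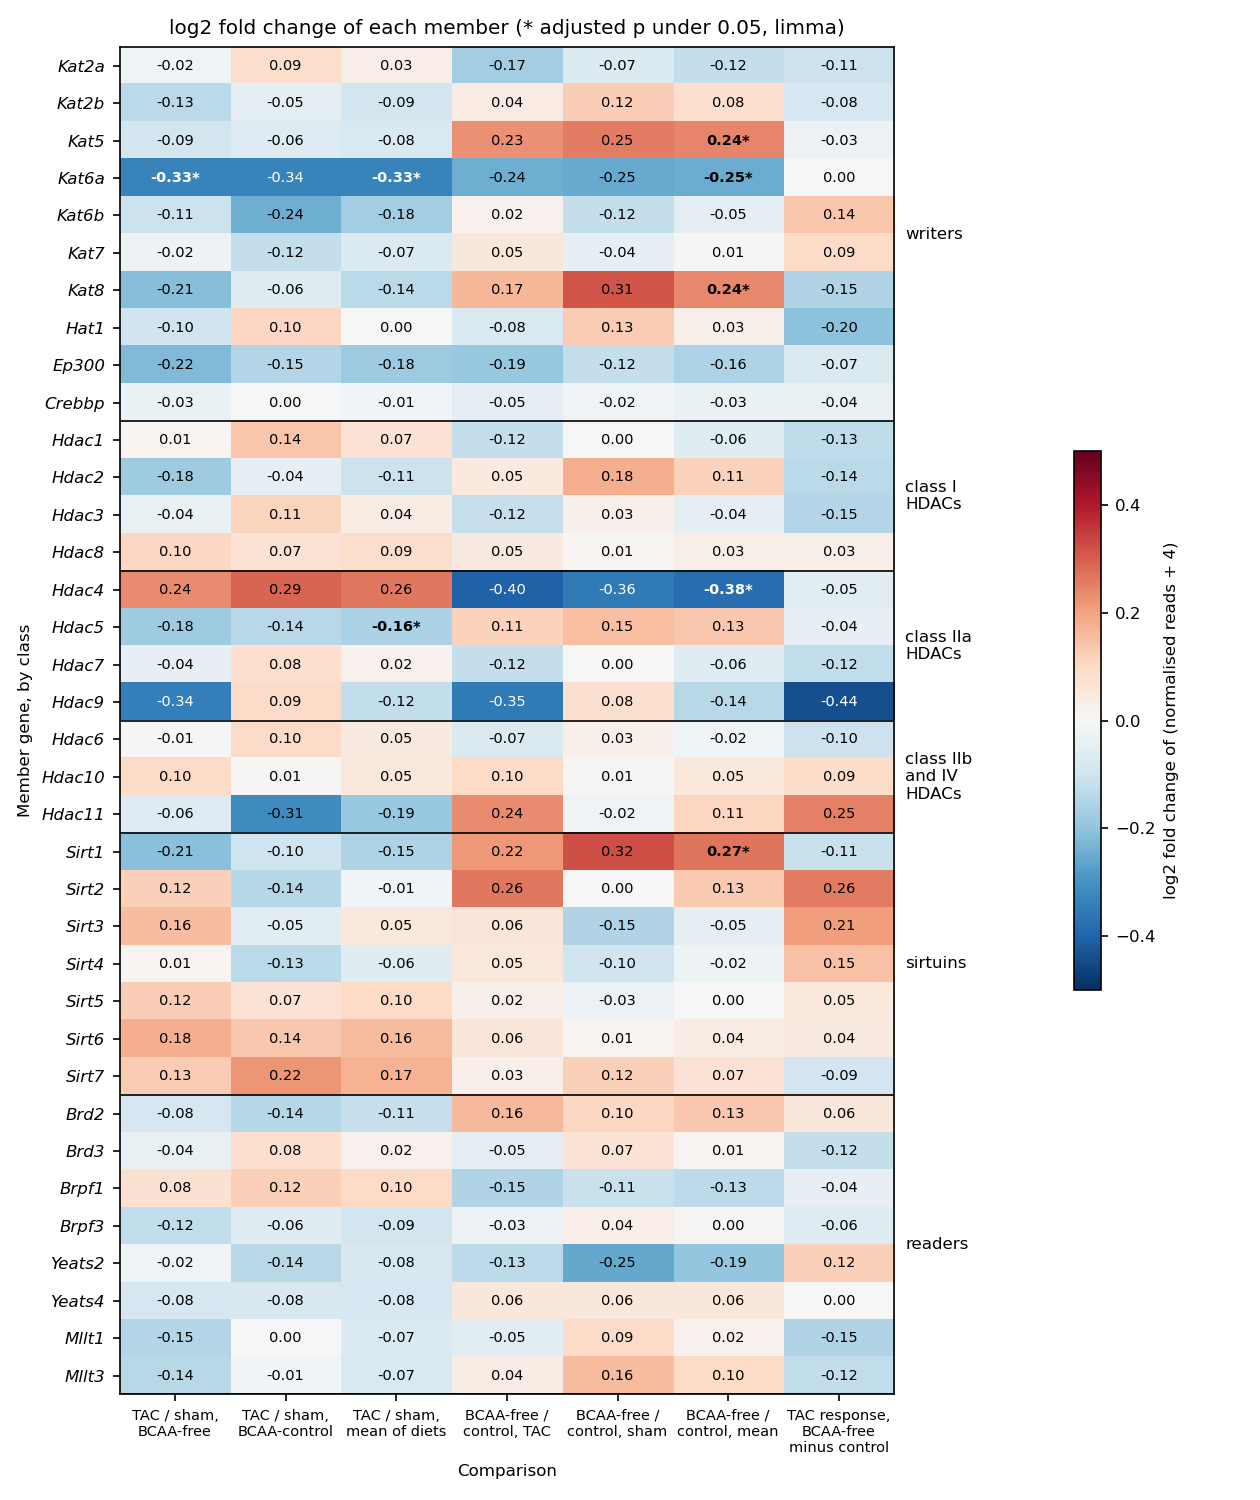
log2 fold change of each member in the 7 comparisons, grouped by class (colour scale from -0.5 to 0.5), with an asterisk for an adjusted p under 0.05 by limma. Kat6a was negative in all 4 pairwise comparisons, Hdac9 was negative in the 2 that involve BCAA-free TAC hearts, and 30 of the 36 rows hold no asterisk.

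Counted over members, groups did not overlap for 12 members for TAC on the BCAA-free diet (3 higher and 9 lower, against 26.7% of all genes), 10 for TAC on the BCAA-control diet (4 higher and 6 lower, 28.0%), 7 for diet in TAC hearts (3 higher and 4 lower, 25.6%) and 9 for diet in sham hearts (6 higher and 3 lower, 23.2%).

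The promoters of the members that rose on the BCAA-free diet are printed to show the sequence upstream of their RefSeq start sites. These starts differ from the ends of some gene spans given above, which follow GENCODE. The Sirt1 window lies inside the Sirt1 span, and the Kat5 window partly overlaps the Kat5 span. RefSeq (GRCm38.p6) holds a promoter for 32 of the 36 members and for 5 of the 6 called ones. Each run is the 250 bases before a start site, 5′ to 3′, with the E-box CACGTG, a site bound by MYC- and CLOCK-type factors, in capitals. Of the 2 starts listed for Kat5 and for Kat8, 1 each is shown, and neither start that is not shown holds an E-box.
Kat5, chr19:5610095-5610344, minus strand: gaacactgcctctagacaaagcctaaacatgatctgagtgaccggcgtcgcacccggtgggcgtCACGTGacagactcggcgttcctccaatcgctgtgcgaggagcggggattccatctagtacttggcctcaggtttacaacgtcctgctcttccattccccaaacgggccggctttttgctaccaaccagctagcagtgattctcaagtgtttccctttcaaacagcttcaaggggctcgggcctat
Sirt1, chr10:63339036-63339285, minus strand: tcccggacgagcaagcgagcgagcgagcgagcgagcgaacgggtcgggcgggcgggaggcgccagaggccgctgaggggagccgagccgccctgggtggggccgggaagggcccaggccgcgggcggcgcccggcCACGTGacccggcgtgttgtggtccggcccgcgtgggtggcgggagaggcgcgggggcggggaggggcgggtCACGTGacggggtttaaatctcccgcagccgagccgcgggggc
Kat8, chr7:127912267-127912516, plus strand: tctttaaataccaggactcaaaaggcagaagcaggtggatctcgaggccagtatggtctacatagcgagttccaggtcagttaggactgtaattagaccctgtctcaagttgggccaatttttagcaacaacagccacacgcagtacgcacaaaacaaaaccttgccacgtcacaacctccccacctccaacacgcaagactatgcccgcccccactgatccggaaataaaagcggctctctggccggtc
The Kat5 window holds 1 E-box, at -186 relative to the start, and the Sirt1 window holds 2, at -115 and -43. The Kat8 window holds none. In all, 3 of the 32 members with a promoter hold an E-box (Hat1, Kat5 and Sirt1; 9.38%), against 6.86% of 27025 genes. Searched on both strands, the GC box GGGCGG stood in 78.1% of members and 35.4% of all genes, CCAAT in 50% and 37.5%, TATAAA in 6.25% and 14.3%, and the CRE core TGACGT in 6.25% and 7.29%. G and C made up 79.2% of the Sirt1 window, 55.2% of the Kat5 window and 51.2% of the Kat8 window. The 27025 genes are all those with a RefSeq promoter, not only genes listed in these hearts. The shares of members and of all genes are thus not matched for level. These 5 motifs were kept from a larger set that was searched, and a match describes the letters only.

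Partners of the members gave the wider setting. Among 39 other subunits of writer complexes, 0 rose and 5 fell with TAC averaged over diets (9.67% of all genes rose and 7.29% fell), Clock (-0.43 ± 0.09, adjusted p = 0.00459), a circadian factor reported to have acetyltransferase activity, Jade1 (-0.25 ± 0.06, adjusted p = 0.0102), a scaffold of the HBO1 complex, and Kansl1, Ncoa1 and Msl2 (-0.17 to -0.16). On the BCAA-control diet alone, Jade2, a paralog of Jade1, rose with TAC (0.44 ± 0.10, adjusted p = 0.0378). With diet averaged over surgery 3 rose and 0 fell (5.19% of all genes rose and 6.57% fell), Epc1 (0.24 ± 0.05, adjusted p = 0.00969), which sits with TIP60 in NuA4, Ing5 (0.40 ± 0.12, adjusted p = 0.0498) and Meaf6 (0.18 ± 0.05, adjusted p = 0.0447), both partners of MYST enzymes. The medians of the list were -0.09 for TAC and 0.01 for diet, against 0.00 and 0.01 for all genes. Of 38 other subunits of eraser complexes, the corepressor gene Ncor1 fell with TAC averaged over diets (-0.20 ± 0.04, adjusted p = 0.00568), and no other passed in that comparison.

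Among 32 other acyl-lysine readers, 0 rose and 8 fell on the BCAA-free diet averaged over surgery, against 5.19% and 6.57% of all genes: Kmt2a, Atad2, Ash1l, Baz1a, Baz1b, Baz2a, Brwd3 and Phip. Kmt2a, which encodes a histone H3 lysine 4 methyltransferase with a bromodomain, had -0.28 ± 0.05 (adjusted p = 0.00395), and Atad2, a bromodomain ATPase linked to proliferation, had -0.88 ± 0.17 (adjusted p = 0.00485). The list median was -0.09, against 0.01 for all genes. With TAC averaged over diets 2 of the 32 fell, Cecr2 (-0.69 ± 0.14, adjusted p = 0.00619) and Ash1l (-0.15 ± 0.05, adjusted p = 0.0483), and 0 rose, against 7.29% and 9.67% of all genes. On the BCAA-control diet alone Atad2 rose with TAC (0.83 ± 0.20, adjusted p = 0.0461). Markers of dividing cells moved with Atad2: all 6 fell on the BCAA-free diet, and their sum was 4.10 to 11.9 CPM in BCAA-free TAC hearts, 2.31 to 3.57 in BCAA-free sham hearts, 57.8 to 67.2 in BCAA-control TAC hearts and 4.95 to 15.8 in BCAA-control sham hearts. Their part in the change of Atad2 was not tested.

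Of 15 tested genes of class IIa HDAC signalling and MEF2, 2 rose and 3 fell with TAC averaged over diets. Of all genes tested, 9.67% rose and 7.29% fell. The 14-3-3 genes Ywhah (0.32 ± 0.06, adjusted p = 0.00277) and Ywhab (0.19 ± 0.05, adjusted p = 0.0214), whose proteins hold phosphorylated class IIa HDACs in the cytoplasm, rose, and Mef2d (-0.16 ± 0.04, adjusted p = 0.0132), Mef2a (-0.17 ± 0.05, adjusted p = 0.0304) and the kinase gene Prkd3 (-0.19 ± 0.06, adjusted p = 0.0423) fell. With diet averaged over surgery 1 of them changed, the export receptor gene Xpo1 (-0.26 ± 0.06, adjusted p = 0.0175), against 11.8% of all genes.

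Among 16 tested genes of NAD supply, Nnmt, whose product methylates nicotinamide, rose with TAC averaged over diets (0.69 ± 0.12, adjusted p = 0.00207). The mitochondrial NAD kinase gene Nadk2 (-0.37 ± 0.08, adjusted p = 0.00708) and the gene of the nuclear NAD-making enzyme, Nmnat1 (-0.19 ± 0.06, adjusted p = 0.0402), fell. In that comparison 9.67% of all genes rose and 7.29% fell. With diet averaged over surgery 1 of 15 tested fell, against 6.57% of all genes. It was Cd38, which encodes an NAD-consuming enzyme (-0.52 ± 0.09, adjusted p = 0.00363). Among 12 tested genes of acyl-CoA supply, Pcca, a subunit of propionyl-CoA carboxylase, fell with TAC (-0.23 ± 0.05, adjusted p = 0.00698) and rose on the BCAA-free diet (0.18 ± 0.05, adjusted p = 0.0409). Crat, the carnitine acetyltransferase gene, and Mmaa, needed for methylmalonyl-CoA mutase, also fell with TAC (-0.19 ± 0.05 and -0.23 ± 0.07, adjusted p = 0.0249 and 0.0365). Of all genes, 7.29% fell with TAC averaged over diets and 5.19% rose on the BCAA-free diet averaged over surgery. In each list up to 2 genes with the smallest p follow the naming rule, and the others were named after their values were seen because the counts are small.

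Cell markers moved with surgery in the same libraries as Kat6a and Hdac5. With TAC averaged over diets 5 of 8 fibroblast, 7 of 7 macrophage and 6 of 6 dividing-cell markers rose and 3 of 6 endothelial markers fell. Of all genes, 9.67% rose and 7.29% fell. Cardiomyocyte markers moved both ways with TAC. On the BCAA-control diet Actc1 had 13010, 11180 and 11580 CPM in TAC hearts, against 8664, 8872 and 8699 in sham hearts. Pln had 3137, 3429 and 3551 in TAC hearts, against 4269, 4066 and 4639 in sham hearts. Both also moved in these directions without overlap on the BCAA-free diet. Fibroblast markers summed to 1197 to 2659 CPM in BCAA-free TAC hearts, against 654 to 739 in BCAA-free sham hearts, and to 1408 to 3025 in BCAA-control TAC hearts, against 897 to 929 in BCAA-control sham hearts. Macrophage markers summed to 312.7 to 398.4 CPM in BCAA-free TAC hearts, against 175.6 to 196.9 in BCAA-free sham hearts, and to 248.8 to 409.5 in BCAA-control TAC hearts, against 236.3 to 246.7 in BCAA-control sham hearts. With diet averaged over surgery 6 of 6 dividing-cell and 2 of 6 endothelial markers fell, against 6.57% of all genes. In the same comparison 2 of 4 adipocyte, 2 of 6 smooth muscle and pericyte and 2 of 8 cardiomyocyte markers rose, against 5.19% of all genes. The cardiomyocyte list was split. Ttn had 3825, 3733 and 3512 CPM in BCAA-free sham hearts, against 4849, 4457 and 4399 in BCAA-control sham hearts. In TAC hearts the diets overlapped for Ttn (3969, 3488 and 4348 CPM on the BCAA-free diet, against 4315, 5355 and 4589). In whole-heart RNA, fewer cells of a type and less RNA per cell cannot be told apart. The part of cell makeup in the members' changes was not tested.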

How the data were processed

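Hearts of 4 groups of 3 libraries were compared. The tools named, per the submitters' processing notes, are Trimmomatic 0.36, STAR 2.5.2b, Subread 1.5.2 and DESeq2, and the genome build is GRCm38, with no role or setting stated for any tool. The 4 deposited tables, 1 for each pair of groups, hold a normalised read signal per library, with the authors' own log2 fold changes and p-values. From the values, each is a whole number of reads divided by a library's size factor: 100% of values gave whole reads at a tolerance of 0.001, with the factors of 2 columns taken from the same library's other table. The recovered read count was used for edgeR, DESeq2 and CPM.

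The signal was tested with limma 3.58.1 (with trend, R 4.3.3) on log2(value + 4), keeping genes whose mean reached 10, with Benjamini-Hochberg adjustment over all genes and a threshold of 0.05. A fold change on this scale understates the change of low genes. Averages over diets and the difference of responses were fitted on the 12 columns of the TAC-against-sham tables, and the average over surgery on those of the diet tables. Alternatives used edgeR 4.0.16 and DESeq2 1.42.0. RPKM used union exon lengths of GENCODE M21, and 16480 of 16514 gene IDs matched it. Recovered reads summed over the listed gene IDs were 29929161 to 46101244 per library, and CPM and RPKM were scaled to these sums. The analysis was tested on simulated data with known changes.

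Members called in any of the 7 comparisons, and in each class the member with the smallest pairwise p, are given with every library. The members and lists were chosen with earlier results of these data known. Of each partner list up to 2 called genes with the smallest p were named by rule, and further ones after their values were seen. One result from these lists is not reported here. Deviations of same-numbered replicates correlated at -0.09 to 0.22, with the highest value for replicate 1 between the diets in TAC hearts. No block was used in the main fit. Mef2b and Mmut (by that symbol) were not listed.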

Additional observations from a re-analysis of the deposited data

Results flagged for a closer look

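Sirt2 met the condition that all libraries of one diet moved one way and all of the other diet the opposite way. In TAC over sham, its 3 TAC libraries all lay above the 3 sham libraries on the BCAA-free diet and all below them on the BCAA-control diet. The difference of the log2 changes, BCAA-free minus BCAA-control, was 0.26 ± 0.09 (SE, 95% interval 0.07 to 0.46). The limma test of that difference gave an adjusted p of 0.324 over all genes, so it did not pass. The 2 diets' values are given above with each library. Groups did not overlap for 26.7% of all genes on the BCAA-free diet and 28.0% on the BCAA-control diet. The share of all genes that meet the condition was not counted.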

How the results depend on the processing

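Kat6a with TAC averaged over diets and Kat5 with diet averaged over surgery passed the threshold under each alternative run, and no called member change turned its direction. The number of members called moved as follows. With DESeq2 it was 1 for TAC on the BCAA-control diet, 2 for TAC on the BCAA-free diet and 1 for diet in TAC hearts, and 3 for TAC averaged over diets (Hdac5, Kat6a and Kat6b, also with a mean of at least 50). With edgeR on all 12 libraries in 1 fit it was 1 for TAC on the BCAA-control diet, 2 for diet in TAC hearts and 1 for TAC averaged over diets, and with edgeR and TMM it was 1 for TAC averaged over diets. Without BCAA-control TAC replicates 2 and 3 together, 1 member, Kat5, was called for diet averaged over surgery and 3 for TAC averaged over diets (Ep300, Hdac5 and Kat6a), with a single library left in that group. With the replicate block the counts were 0 for TAC on the BCAA-free diet and 2 for diet in TAC hearts (Hdac4 and Hdac9). The labels link same-numbered libraries only by that number, and their deviations correlated at -0.09 to 0.22. The block gave 3 for TAC averaged over diets (Ep300, Hdac5 and Kat6a) and left the other counts as they were. Leaving out 1 library gave 0 to 2 members for TAC on the BCAA-free diet, 0 to 1 for TAC on the BCAA-control diet, 0 to 3 for diet in sham hearts, 1 to 3 for TAC averaged over diets and 2 to 7 for diet averaged over surgery. Of 239 uncalled member changes, 14 were called in at least 1 alternative. The 239 leave out the uncalled changes that had the smallest pairwise p of their class. Of these, only that of Hdac9 for TAC on the BCAA-free diet was called in an alternative. The causes were not tested.

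Counts over all genes, against which the members are read, moved more. Leaving out 1 library gave 105 to 1195 genes for TAC on the BCAA-free diet, 91 to 660 for TAC on the BCAA-control diet, 100 to 1044 for diet in TAC hearts and 68 to 1019 for diet in sham hearts. DESeq2 called 1145 genes for TAC on the BCAA-free diet (688 by limma), 1539 for TAC on the BCAA-control diet (848), 1188 for diet in TAC hearts (548), 812 for diet in sham hearts (438) and 108 for the difference of TAC responses (7). Without BCAA-control TAC replicates 2 and 3 together, which leaves 1 library in that group, 0 genes were called for diet in TAC hearts, 180 for TAC on the BCAA-control diet and 850 for diet averaged over surgery (1819). With the block, 1275 genes were called for diet in TAC hearts and 713 for diet in sham hearts. With 3 libraries a group, the median standard error of a member's change was 0.09 (log2) for TAC on the BCAA-control diet, which limits what small changes can be called.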
